A study of Homo sapiens with 4 samples.

Results

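The genes described here are the nuclear genes for mitochondrial ribosomal proteins. Members were the protein-coding rows of the count table whose gene symbol is MRPL or MRPS followed by a number, with A, B or C allowed after the number of an MRPS gene. The rule found 78 of 60708 genes, of which 49 were MRPL genes and 29 were MRPS genes. The filter on low counts kept 69 of the 78 for the test, and the other 9 had almost no counts. The study asked what happens to RNA synthesis when Thr4 of the RNA polymerase II C-terminal domain (CTD) cannot be phosphorylated. Its 4 libraries are TT-seq, in which RNA made during a short pulse of 4-thiouridine (4-SU, here 20 min) is purified and sequenced. All came from HEK293 cells, an established line from human embryonic kidney. Their own RPB1, the largest subunit of RNA polymerase II, carries a degron, through which auxin sends the protein to degradation. Both groups received plasmid RPB1 by transient transfection, auxin after 48 h, and 48 h of auxin before labeling. In the 52X WT group (2 libraries) the plasmid RPB1 had the wild-type CTD of 52 repeats. In the 52X T4A group (2 libraries) every repeat carried alanine in place of Thr4. There was no group without auxin or without plasmid among the libraries used, and the share of cells that took up plasmid is not given in the sources used here. Nothing in the labels says that the libraries of a group came from separate cultures, so p-values measure only the spread between these samples, which may be technical.

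Mitochondria have a ribosome of their own, the mitoribosome, which makes the few inner membrane proteins of the respiratory chain that mitochondrial DNA encodes. Its RNAs are transcribed inside the organelle, whereas its proteins are encoded in the nucleus, transcribed by RNA polymerase II, made in the cytosol and imported. Some of these proteins have a counterpart in bacterial ribosomes and the rest are specific to mitochondria. Promoters of nuclear genes for mitochondrial proteins are known for binding sites of NRF1, GABP (an ETS family factor) and YY1.

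The libraries summed to 33188536 to 45605027 counts, and 23321 genes passed the filter on low counts. Members took 0.289% to 0.306% of all counts in each library. POLR2A, the gene for RPB1, had 9640 and 8720 normalized CPM (counts scaled to the TMM-adjusted library size) in WT and 7492 and 8083 in T4A. The degron acts on the protein and plasmid RNA adds reads to this gene, so these values check neither the depletion nor the labels. Of the markers of HEK293 cells, CDH2 (271 to 333 normalized CPM) and LIN28B (174 to 210) were abundant, PAX2 and SOX11 were low (at most 6.31), and NEFM had at most 6 counts. Markers of blood, liver, T cells, heart and pancreas reached at most 1.1 normalized CPM. T4A replicate 1 stood apart from the other 3 libraries for genes rich in G and C, so library values or fits without it are given beside the results it moves.

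The windows around the start sites of 5 members are shown as examples of the motifs searched for. Each window runs from 250 bases before to 50 bases after the start given by RefSeq on GRCh38.p14. Capitals mark matches, on either strand, to the NRF1 core GCATGCGC, the ETS core CCGGAAG or the YY1 core AAGATGGC. MRPL46 lies on the minus strand at chr15:88467339-88467638 and starts 63 bp from MRPS11, on the other strand. MRPL47, on the minus strand at chr3:179604589-179604888, starts 41 bp from a respiratory chain gene. MRPL52, on the plus strand at chr14:22829637-22829936, holds all 3 of these motifs. MRPL17, on the minus strand at chr11:6683291-6683590, has the NRF1 core and is among the members with the densest TT-seq signal. MRPS27, on the minus strand at chr5:72320191-72320490, is one of the members that were lower in both T4A libraries.
MRPL46: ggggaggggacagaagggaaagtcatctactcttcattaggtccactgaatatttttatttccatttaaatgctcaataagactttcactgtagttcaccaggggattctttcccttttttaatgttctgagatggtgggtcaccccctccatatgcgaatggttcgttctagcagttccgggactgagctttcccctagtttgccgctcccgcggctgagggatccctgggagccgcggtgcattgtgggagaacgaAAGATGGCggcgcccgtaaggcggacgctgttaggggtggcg
MRPL47: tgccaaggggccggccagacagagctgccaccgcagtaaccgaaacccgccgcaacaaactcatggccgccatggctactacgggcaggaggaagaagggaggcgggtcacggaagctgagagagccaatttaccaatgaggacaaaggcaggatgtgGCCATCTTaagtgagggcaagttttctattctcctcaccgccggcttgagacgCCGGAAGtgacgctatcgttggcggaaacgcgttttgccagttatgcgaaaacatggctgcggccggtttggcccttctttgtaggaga
MRPL52: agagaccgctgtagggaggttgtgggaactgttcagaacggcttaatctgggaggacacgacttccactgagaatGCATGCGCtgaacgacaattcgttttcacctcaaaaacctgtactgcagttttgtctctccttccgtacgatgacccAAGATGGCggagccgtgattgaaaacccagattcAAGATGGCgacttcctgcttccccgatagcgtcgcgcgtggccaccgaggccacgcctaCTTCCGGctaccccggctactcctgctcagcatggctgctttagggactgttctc
MRPL17: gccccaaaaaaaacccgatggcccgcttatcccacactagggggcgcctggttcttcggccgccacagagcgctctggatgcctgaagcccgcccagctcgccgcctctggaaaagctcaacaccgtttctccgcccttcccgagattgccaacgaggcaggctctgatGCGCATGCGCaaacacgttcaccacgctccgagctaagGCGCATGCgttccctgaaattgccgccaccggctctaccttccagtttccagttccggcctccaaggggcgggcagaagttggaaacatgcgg
MRPS27: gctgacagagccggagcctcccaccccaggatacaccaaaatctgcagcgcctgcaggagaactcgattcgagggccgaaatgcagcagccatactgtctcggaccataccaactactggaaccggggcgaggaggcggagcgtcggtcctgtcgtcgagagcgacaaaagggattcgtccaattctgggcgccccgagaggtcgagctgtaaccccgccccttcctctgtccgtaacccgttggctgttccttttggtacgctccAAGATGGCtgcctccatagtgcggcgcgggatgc

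These windows were read for 69 members, all but MRPL2, MRPL10, MRPL13, MRPL15, MRPL21, MRPL23, MRPL35, MRPS28 and MRPS36. The YY1 core stood in 20 of the 69 (29%), against 3.97% of 15276 protein-coding promoters of the same length. The ETS core stood in 29 of the 69 (42%), against 14.4%, and the NRF1 core in 6 (8.7%), against 4.26%. The other motifs searched were the SP1 core GGGCGG (60.9% of members, 59.3% of all), CCAAT (29% and 36.6%) and TATAAA (2.9% and 9.57%). The median GC content of the window was 60.3% for members and 63% for all promoters. In 15 of the 20 members with the YY1 core (75%), the letters lay on the gene's own strand after the start, as in MRPL46, where they begin 8 bases after it, and MRPS27, where they begin 16 bases after it. Of all 607 promoters with this core, 343 (56.5%) had it there. The YY1 letters contain ATG, so a match after the start can also cover a translation start. In MRPL52 the YY1 core occurs at 98 and at 64 bases before the start, and the ETS core 5 bases before it on the opposite strand. The run GCGCATGCGC in MRPL17 holds an NRF1 match on each strand. These matches are descriptions of letters, not of bound factors.

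Levels were compared between genes per kb of the gene span that no other gene of the same strand covers. On this scale the 69 tested members had a median of 2.91 normalized CPM per kb in the WT mean, against 0.741 for the 15329 tested protein-coding genes, and 63 of the 69 lay above the latter value. Members were also short genes, with a median span of 12560 bp against 37837 bp. The highest values belonged to MRPL51 (9.75 normalized CPM per kb), a mitochondria-specific protein of the large subunit, and to MRPS2 (8.06), a small subunit protein conserved from bacteria. MRPL17 (7.64), MRPS30 (7.41) and MRPL41 (7.27) followed. MRPS30 is a protein of the large subunit in spite of its symbol. MRPL51 stood at 18.3 and 19.8 normalized CPM in WT and at 20.9 and 20.5 in T4A. MRPS2 had 41.5 and 34.1 in WT, and per kb MRPL51 lay above MRPS2 in both WT libraries. MRPS2, MRPL17, MRPS30 and MRPL41 overlapped one another across them, so their order is not settled.

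The lowest tested member was MRPL23 (0.0912 normalized CPM per kb), which codes for a large subunit protein conserved from bacteria. MRPS22 (0.142), MRPL34 (0.33), MRPL11 (0.374), MRPL33 (0.411) and MRPL43 (0.515) were next. The listed spans of MRPS22 (351418 bp) and MRPL33 (216371 bp) are long for this family, and their total levels were close to those of other members, at 45.7 and 48.3 normalized CPM in WT for MRPS22 and at 46.2 and 50.9 for MRPL33. MRPS22 is a mitochondria-specific small subunit protein with known disease variants. MRPL23 (37245 bp), MRPL11 (31664 bp), MRPL43 (18058 bp) and MRPL34 (14235 bp) also had listed spans above the median of 12560 bp of tested members. The highest member lay 107-fold above the lowest on the per-kb scale, which depends on the listed span as well as on the counts.

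**Figure D1:**
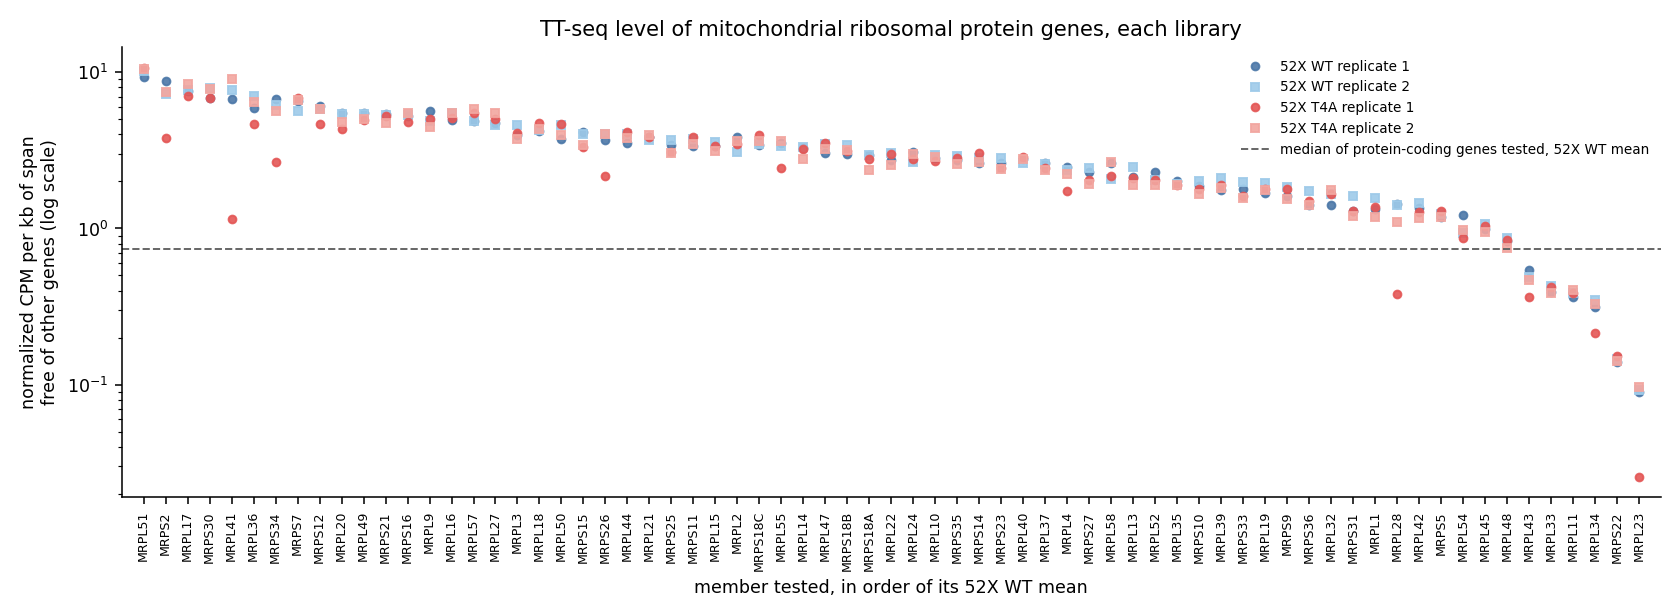
Normalized CPM per kb of free span (log scale) of each tested member in the 4 libraries, in order of the WT mean, with the dashed line at the protein-coding median of 0.741. Most members lie between 1 and 10, and single low points belong to T4A replicate 1, such as that of MRPL41.

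The 9 members without a test were MRPL12, MRPL30, MRPL38, MRPL46, MRPL53, MRPS6, MRPS17, MRPS24 and MRPS28. MRPL12, the stalk protein that also binds the mitochondrial RNA polymerase, was listed at 0 in all 4 libraries, as were MRPL30, MRPL38, MRPS17 and MRPS24. MRPL46 had 5 and 7 counts in WT and 5 and 4 in T4A. MRPL53, MRPS6 and MRPS28 had at most 4 counts in any library. All 9 lie on the same strand as an overlapping gene and have between 0 and 354 bases of their own, whereas the 69 tested members have at least 677. MRPS17 lies within NIPSNAP2 and MRPS24 within the readthrough gene URGCP-MRPS24. The listed values therefore cover hardly any of these 9 genes, and give no level for them.

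T4A and WT libraries were compared with edgeR's quasi-likelihood test over all 23321 genes. No member passed the threshold of an adjusted p below 0.05 with a fold above 1.5, where 1 of all genes did (0.00429%). DESeq2 gave an adjusted p to 61 of the members and called 0 of them, beside 106 of the 11565 genes to which it gave one (0.917%). The lowest adjusted p of a member in edgeR was 0.271 after Benjamini-Hochberg adjustment. The median log2 fold change (T4A over WT) was -0.09 over the 69 members, with quartiles of -0.21 and 0.03, beside -0.00 over all genes and -0.04 over protein-coding genes. It was below 0 for 47 members and above 0 for 22. As medians of deviations from the WT mean, the members stood at -0.04 and 0.04 in the WT libraries and at -0.07 and -0.06 in the T4A libraries. Both T4A values lay below both WT values, and the gap to WT replicate 1 was smaller than the gap between the WT libraries. The standard error of a member's log2 fold change had a median of 0.12. In these bulk libraries fewer cells and less labeled RNA per cell cannot be told apart, and a change shared by all genes would not show in CPM.

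Both T4A libraries lay below both WT libraries for 21 members (30.4%), where 24.7% of all genes did so. Both lay above for 9 members (13%), where 24.8% of all genes did so, and the groups overlapped for the other 39. At an unadjusted p below 0.05, 4 members were lower in T4A (5.8%, against 8.02% of all genes) and 0 were higher (against 7.45%). The 4 were MRPS15, MRPS27, MRPS25 and MRPL28. Of the 15329 tested protein-coding genes, 1602 were lower and 1008 were higher at this limit.

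MRPS15, a small subunit protein conserved from bacteria, had 36.1 and 35.1 normalized CPM in WT and 28.7 and 29.7 in T4A. Its groups did not overlap, and its log2 fold change was -0.28 (SE 0.10, edgeR unadjusted p = 0.024, Benjamini-Hochberg adjusted p = 0.271). MRPS27, a mitochondria-specific small subunit protein with pentatricopeptide repeats, had 231 and 248 in WT and 207 and 194 in T4A, and MRPS25, also mitochondria-specific, had 78.7 and 84.3 against 70.1 and 69.9. Their log2 fold changes were -0.25 (SE 0.10) and -0.22 (SE 0.09), with adjusted p of 0.277 and 0.298 in edgeR. In all 3 genes both T4A libraries lay below both WT libraries by a similar amount. Their GC contents were 49.3%, 39.2% and 45.9%. The trend of each library on GC content was also removed, in a fit added after the data were seen. There edgeR gave 4 members (5.8%) an adjusted p below 0.05 without a fold limit, beside 10.1% of all genes. These were MRPS27 (log2 fold change -0.26, adjusted p = 0.00754), MRPS25 (-0.26, 0.042), MRPS15 (-0.31, 0.0439) and MRPL13 (-0.20, 0.045), and none of them exceeded 1.5-fold. MRPL13, a conserved large subunit protein, had 138 and 160 normalized CPM in WT and 136 and 123 in T4A.

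The largest differences among members were those of GC-rich genes in a single library, T4A replicate 1. There were 6 tested members with more than 60% GC in their span, MRPL23, MRPL28, MRPL41, MRPS2, MRPS26 and MRPS34. MRPL41, a mitochondria-specific large subunit protein, lies at chr9:137551879-137552555 on GRCh38, spans 677 bp and has 68.4% GC. Its counts were 180 and 231 in WT, 26 in T4A replicate 1 and 212 in T4A replicate 2. As normalized CPM these were 4.6 and 5.24, then 0.775 and 6.13, so T4A replicate 1 lay 6.35-fold below the WT mean while T4A replicate 2 lay above both WT libraries. The log2 fold change of MRPL41 over both T4A libraries was -0.51 (SE 0.66, edgeR adjusted p = 0.731).

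The other 5 GC-rich members were lowest in the same library. MRPL28, a conserved large subunit protein at chr16:366969-371289, had 5.44 and 5.42 normalized CPM in WT, 1.46 in T4A replicate 1 and 4.19 in T4A replicate 2. It is the one of the 6 with both T4A libraries clearly below WT, with a log2 fold change of -0.94 (SE 0.40, edgeR unadjusted p = 0.0461, Benjamini-Hochberg adjusted p = 0.317). MRPL23 had 3.35 and 3.45 in WT, 0.953 in T4A replicate 1 and 3.62 in T4A replicate 2. MRPS34, which is needed for a stable small subunit, had 8.48 and 7.76, then 3.34 and 7.17. Its T4A values lay below both WT values, that of replicate 2 by little. MRPS2 had 41.5 and 34.1 in WT and 17.9 and 35.3 in T4A, and MRPS26, a mitochondria-specific small subunit protein, had 8.12 and 8.89 against 4.77 and 8.79. For MRPL23, MRPS2 and MRPS26 the groups overlapped, since T4A replicate 2 lay within or above the WT libraries.

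**Figure D2:**
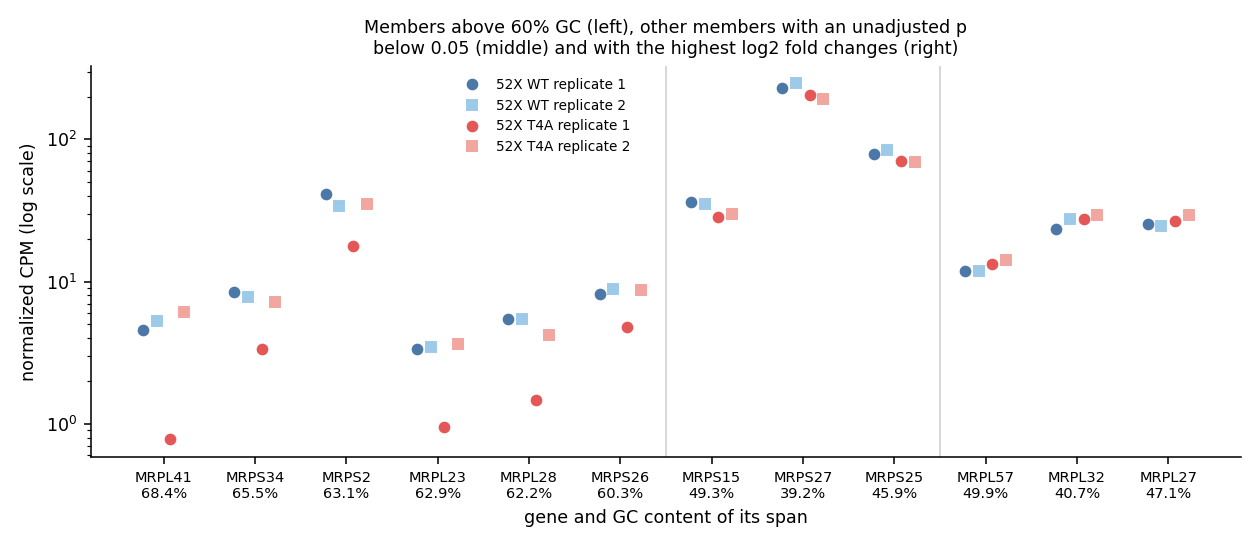
Normalized CPM (log scale) in each library for the 6 members above 60% GC, the other 3 members with an unadjusted p below 0.05, and the 3 with the highest log2 fold changes. In the first set T4A replicate 1 lies alone below the rest, as for MRPL41 at 0.775, whereas in MRPS15, MRPS27 and MRPS25 both T4A points lie below both WT points.

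The difference of T4A replicate 1 grew with GC content among members above 50% GC and was nearly flat below. At 40% GC or less, members deviated from the WT mean by a median log2 of -0.01. The median was -0.03 between 40% and 45% and -0.04 between 45% and 50%. Higher up it was -0.34 between 50% and 55%, -0.47 between 55% and 60%, and -1.52 above 60%. In T4A replicate 2 the same groups stood at -0.12, -0.05, -0.02, -0.02, -0.06 and -0.02. Protein-coding genes of the same GC showed it too, with medians in T4A replicate 1 of 0.01, 0.04, 0.02, -0.11, -0.39 and -1.14. T4A replicate 1 was the lowest of the 4 libraries for all 10 tested members of 55% GC or more and for 75.9% of the 2317 protein-coding genes of that GC. Below 50% GC it was the lowest for 5 of 52 members (9.62%), beside 12% of protein-coding genes. In that range T4A replicate 2 was the lowest for 25 of the 52 members (48.1%), beside 43.6% of protein-coding genes. Across the 69 members, GC content and the deviation in T4A replicate 1 had a Pearson r of -0.76 and a Spearman rho of -0.53, given as a description, since the points share 1 library and GC content goes with short spans (r = -0.64 with log10 span). Over protein-coding genes the r was -0.45. The smaller deviations of the other libraries followed GC content too. Members had a rho of 0.63 in WT replicate 1, -0.63 in WT replicate 2 and 0.25 in T4A replicate 2. The WT values mirror each other because deviations are taken from the mean of the WT libraries. With the GC trend of each library removed, the log2 fold changes moved from -0.63 to -0.13 for MRPS34, from -0.51 to -0.10 for MRPS2, from -0.33 to -0.07 for MRPS26, from -0.51 to -0.17 for MRPL41 and from -0.57 to -0.29 for MRPL23, while MRPL28 moved from -0.94 to -0.65.

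**Figure D3:**
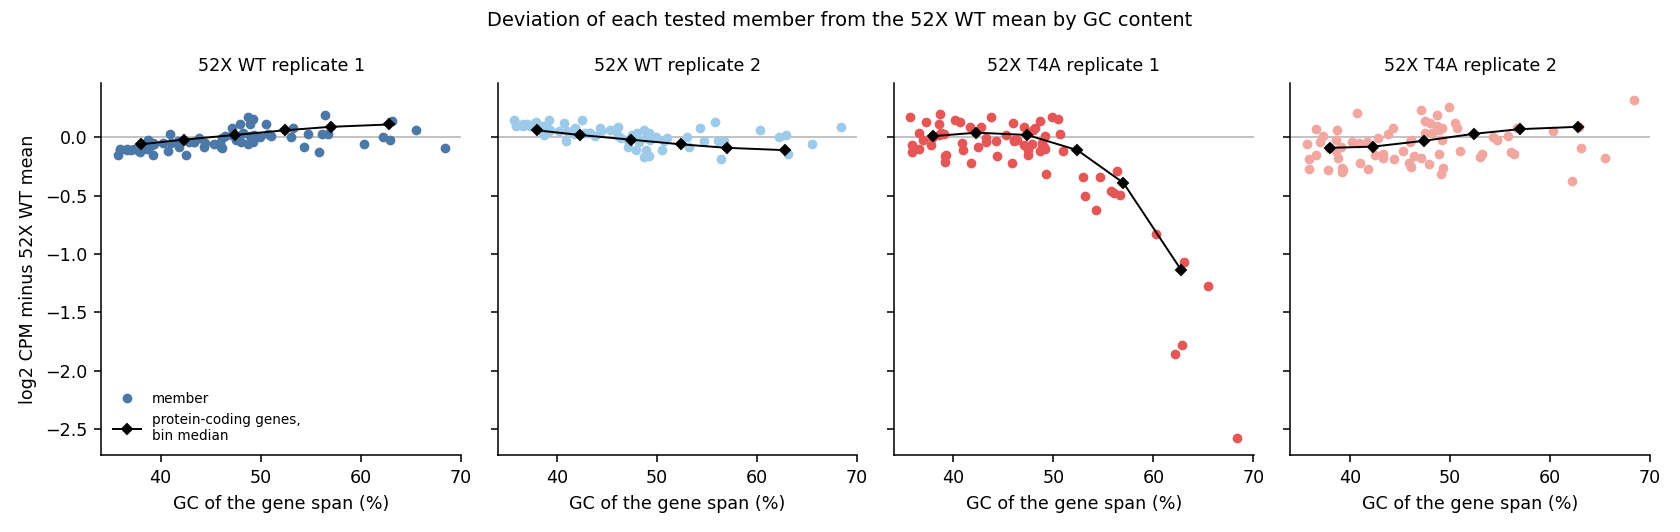
Log2 CPM of each tested member minus its WT mean against the GC content of its span, 1 panel per library, with black diamonds for the medians of protein-coding genes in 6 GC ranges. In T4A replicate 1 the points drop from about 50% GC onward, to -2.58 for MRPL41. In the other panels they stay closer to 0. With GC content they rise in WT replicate 1, fall in WT replicate 2 and rise weakly in T4A replicate 2.

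Calls among members depended on the T4A library left out. Without T4A replicate 2, edgeR called 6 members (8.7%, beside 10.4% of all genes), and these were the 6 with more than 60% GC, all lower. In that fit the log2 fold change of MRPL41 was -2.66 with an adjusted p of 2.04e-14, and that of MRPS26 was -0.84 with an adjusted p of 0.00137. Without T4A replicate 1, edgeR called 0 members, beside 0.961% of all genes, and the log2 fold changes were 0.34 for MRPL41, 0.11 for MRPL23, 0.07 for MRPS26 and -0.35 for MRPL28. Each of these fits leaves 1 T4A library, which is assumed to vary as the WT libraries do. With the replicate number as a block, edgeR called MRPL28 (log2 fold change -1.09, adjusted p = 0.0104) and MRPL41 (-0.99, 0.0352), or 2.9% of members beside 1.86% of all genes. The labels do not say that a shared number marks a shared batch, and T4A replicate 2 of MRPL41 lay above both WT libraries. With libraries scaled to the mitochondrially encoded genes, it called MRPL28 (log2 fold change -1, adjusted p = 0.0408), or 1.45% of members beside 0.836% of all genes. This scaling used the summed counts of all genes on the mitochondrial chromosome, including those that code for no protein. The 13 protein-coding genes among them stood at a median log2 deviation of -0.37 in T4A replicate 1 and -0.06 in T4A replicate 2. The deviation of the sum itself is not given here.

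By the place of the protein in the mitoribosome, the medians of the log2 fold changes were close to one another except in 1 class. They were -0.06 for 28 tested large subunit proteins with a bacterial counterpart, -0.08 for 18 large subunit proteins specific to mitochondria, and -0.05 for 12 small subunit proteins with a bacterial counterpart. The 10 small subunit proteins specific to mitochondria had a median of -0.22, with 9 of 10 below 0. These classes hold only genes that the symbol rule found. The 5 mitoribosome proteins whose symbols the rule misses are left out of them. In that class the median deviation from the WT mean was -0.18 in each T4A library. Its median was -0.16 without T4A replicate 1, -0.19 without T4A replicate 2 and -0.17 with the GC trend removed, beside all-gene medians of 0.02, 0.00 and 0.01. None of its members passed the threshold in the comparison of both groups. It holds MRPS25, MRPS27, MRPS26 and MRPS34, and MRPS22, the one member of the class above 0, had 45.7 and 48.3 normalized CPM in WT and 50 and 46.5 in T4A. The class was singled out after its values were seen, and it has no test.

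**Figure D4:**
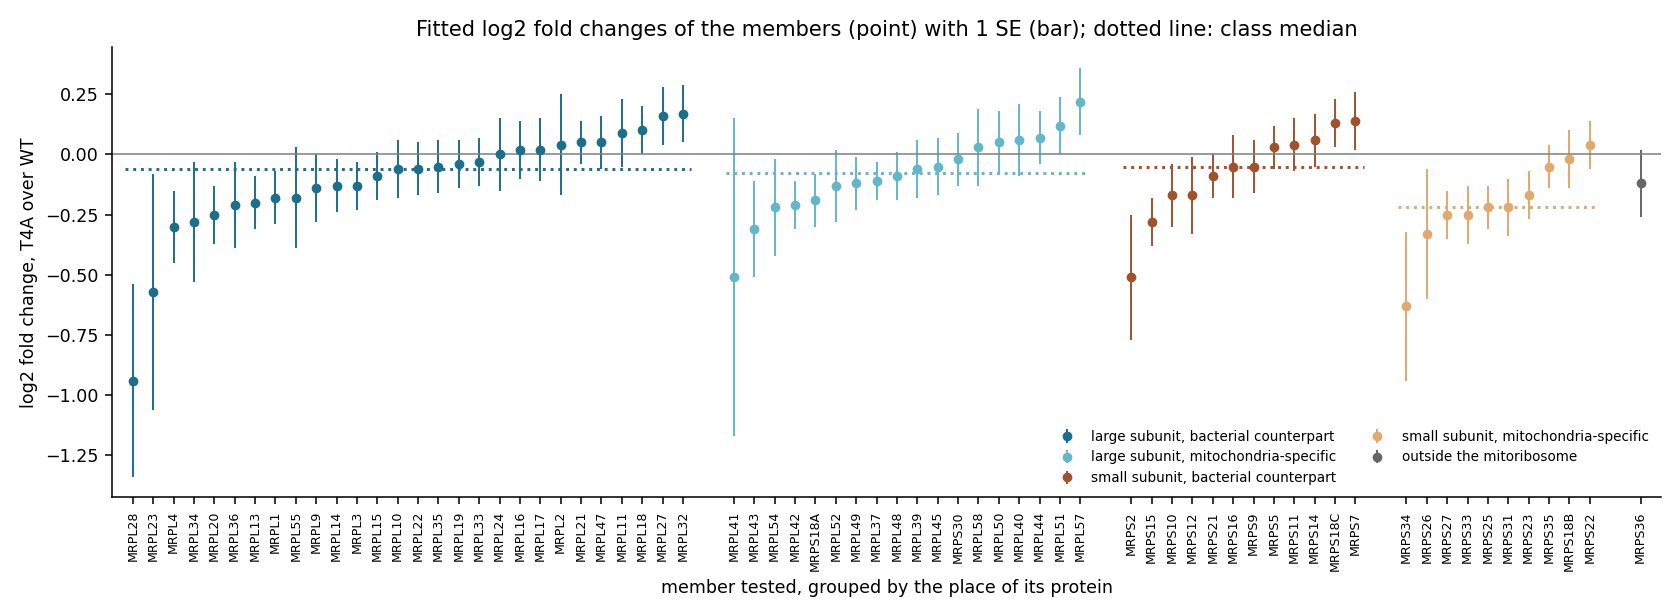
Log2 fold change (T4A over WT) of the 69 tested members with bars of 1 SE, grouped by the place of the protein, with a dotted line at each class median. The dotted lines lie between -0.05 and -0.08 except that of the mitochondria-specific small subunit proteins at -0.22, MRPS36 (-0.12) stands alone outside the mitoribosome with no line, and the widest bars belong to GC-rich genes such as MRPL41.

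The highest log2 fold changes were small. MRPL57, a mitochondria-specific large subunit protein, had 11.9 and 11.8 normalized CPM in WT and 13.4 and 14.2 in T4A, a log2 fold change of 0.22 (SE 0.14, edgeR adjusted p = 0.468). MRPL32, whose protein is matured by a mitochondrial protease before assembly, had 23.3 and 27.4 in WT and 27.7 and 29.2 in T4A. MRPL27 had 25.4 and 24.6 against 26.7 and 29.4, and MRPS7, a conserved small subunit protein that binds ribosomal RNA, had 30.9 and 26.5 against 32.1 and 31.1. In each of these genes both T4A libraries lay above both WT libraries, and the log2 fold changes of the last 3 were 0.17, 0.16 and 0.14.

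The 3 MRPS18 paralogs code for proteins at different places. MRPS18C, the bacterial-type S18 of the small subunit, had 47.2 and 48.2 normalized CPM in WT and 54.6 and 49.8 in T4A (log2 fold change 0.13, SE 0.10). MRPS18B, another small subunit protein, had 25.8 and 29.3 against 27 and 27.1 (-0.02, SE 0.12). MRPS18A, which sits in the large subunit, had 49.1 and 48.8 against 46.4 and 39.5 (-0.19, SE 0.11). The groups were separate for MRPS18A and MRPS18C, in opposite directions, and overlapped for MRPS18B. Their adjusted p in edgeR's test were 0.533, 0.932 and 0.423 for MRPS18C, MRPS18B and MRPS18A.

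Apart from MRPS2 and MRPS34, described with the GC-rich genes, the members picked for a known role had the following levels. MRPL3, a large subunit protein near the peptidyl transferase centre, had 162 and 187 normalized CPM in WT and 166 and 153 in T4A. MRPL11, at the base of the stalk, had 11.5 and 12.2 against 12.3 and 12.8. MRPS12, at the decoding centre, had 13.5 and 13 against 10.4 and 13. The low value is that of T4A replicate 1, the span has 54.7% GC, and the log2 fold change of -0.17 was 0.001 without that library. MRPL58, which releases peptides from stalled mitoribosomes, had 22.5 and 17.9 against 18.5 and 22.8, and MRPL44, which has a fold like that of RNase III, had 36.2 and 41.4 against 42.4 and 39.1. The groups overlapped for MRPL3, MRPS12, MRPL58 and MRPL44, and the T4A libraries of MRPL11 lay above WT by 0.09 on the log2 scale (SE 0.14). MRPS36 carries the family's symbol but its protein belongs to the 2-oxoglutarate dehydrogenase complex, and it had 17.6 and 21.7 against 18.5 and 17.6.

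Other genes of mitochondrial translation gave no call either. Of 5 mitoribosome proteins whose symbols the rule misses, DAP3, a GTP-binding small subunit protein, had 111 and 120 normalized CPM in WT and 96.1 and 83 in T4A (log2 fold change -0.36, SE 0.10, edgeR adjusted p = 0.224). AURKAIP1, another of these 5, with 66.8% GC, had 8.35 and 8.44 in WT, 1.07 in T4A replicate 1 and 10 in T4A replicate 2. The rest of the 5, GADD45GIP1, CHCHD1 and PTCD3, had log2 fold changes of -0.25, -0.11 and 0.09. Among 11 translation factors, 4 were lower at an unadjusted p below 0.05 and 1 was higher, where 8.02% and 7.45% of all genes were. The 4 were MTIF2 and MTIF3 (initiation), MTFMT (which formylates the initiator tRNA) and MRRF (ribosome recycling), with log2 fold changes of -0.41, -0.30, -0.37 and -0.38. The one higher was MTRF1L, a release factor, at 0.24. Of 14 tested mitochondrial aminoacyl-tRNA synthetase genes, LARS2 alone was lower (-0.33, SE 0.10), and of 19 tested assembly factors, TFB1M, a ribosomal RNA methyltransferase, alone was lower (-0.34, SE 0.09), both at an unadjusted p below 0.05. No gene of these lists passed the adjusted threshold. The 77 tested genes for cytosolic ribosomal proteins had a median log2 fold change of 0.10, with 59 above 0 and 17 higher at an unadjusted p below 0.05, where 7.45% of all genes were. The 64 tested nuclear genes of the respiratory chain had a median of -0.07. The lists share libraries and scaling, and the differences between them were not tested.

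Many members start close to a gene on the other strand. For 23 of 78 members (29.5%) a protein-coding gene of the other strand started within 500 bp, against 10.8% of 19902 protein-coding genes. The starts closest to each other were those of MRPL13 and MTBP (2 bp), MRPL49 and FAU (6 bp), MRPL27 and EME1 (13 bp), and MRPS35 and its divergent transcript MRPS35-DT (19 bp). FAU codes for a fusion protein that yields a ribosomal protein of the cytosolic small subunit. MRPL49 had 28.3 and 28 normalized CPM in WT and 25.8 and 25.9 in T4A, while FAU had 23.9 and 21.6 against 26.4 and 23.8. MRPL13 and MTBP were both lower in both T4A libraries, with log2 fold changes of -0.20 (SE 0.11) and -0.19 (SE 0.09). MRPL27 had 0.16 (SE 0.12) and EME1 had 0.02 (SE 0.16). MRPS35, a mitochondria-specific small subunit protein, had 124 and 132 in WT and 129 and 118 in T4A.

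Several partners code for mitochondrial proteins. MRPL46 and MRPS11 start 63 bp apart, and MRPS11, a conserved small subunit protein, had 44.9 and 49.9 normalized CPM in WT and 51.6 and 46.2 in T4A. MRPL36 and NDUFS6, which codes for a complex I subunit, start 41 bp apart and had log2 fold changes of -0.21 (SE 0.18) and -0.13 (SE 0.09). MRPL36, with 55.8% GC, had 17.5 and 20.9 normalized CPM in WT against 13.9 and 19.3 in T4A. Its log2 fold change was 0.02 when T4A replicate 1 was left out. MRPL47 also starts 41 bp from a complex I gene, NDUFB5, which had at most 2 counts and no test. MRPL43 and TWNK, the gene for the mitochondrial DNA helicase, had -0.31 (SE 0.20) and 0.14 (SE 0.09). MRPL43, with 53.2% GC, had 7.03 and 6.31 in WT and 4.71 and 6.04 in T4A, and stood at -0.12 without T4A replicate 1 and at -0.50 without T4A replicate 2. MRPS12 starts 181 bp from SARS2, a mitochondrial seryl-tRNA synthetase with at most 8 counts. Overlaps of NDUFB5 and SARS2 with genes of their own strand are not given here. Their low counts are therefore not read as low transcription. MRPL18 and TCP1, a cytosolic chaperonin gene, had 0.10 (SE 0.10) and 0.14 (SE 0.08). Of the 17 pairs with both genes tested, 9 had both log2 fold changes on the same side of 0 and 8 had them on opposite sides. The median difference within a pair was 0.19 on the log2 scale.

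**Figure D5:**
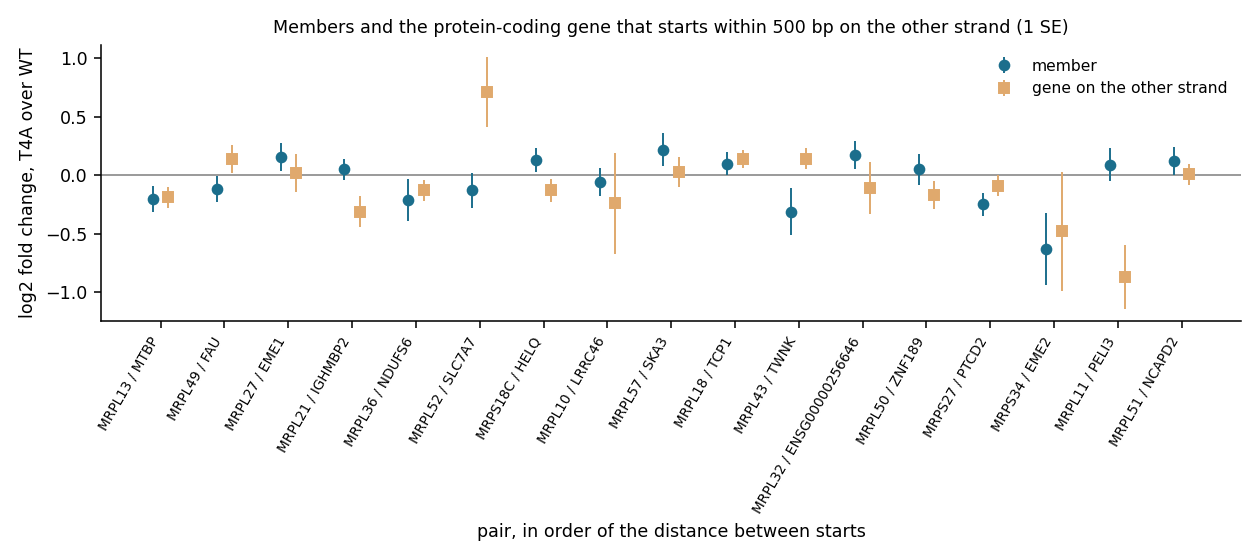
Log2 fold changes (T4A over WT) with bars of 1 SE for the 17 tested pairs of a member (circles) and the protein-coding gene that starts within 500 bp on the other strand (squares), in order of distance. The signs match in 9 pairs, as in MRPL13 and MTBP, and differ in 8, as in MRPL49 and FAU.

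Median log2 fold changes were also taken by motif. The 17 tested members with the YY1 core had a median log2 fold change of -0.06 and the 44 without it -0.09. With the ETS core the median was -0.13 over 26 members and without it -0.05 over 35, beside -0.07 over 1980 and -0.04 over 10061 tested genes whose window was read. With the NRF1 core it was -0.00 over 6 members and without it -0.11 over 55. These medians are given without a test.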

How the data were processed

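TT-seq libraries of 2 groups with 2 libraries each were analysed. The authors deposited raw counts per gene, made with featureCounts according to the file header. The submitters' processing notes name cutadapt 4.6, STAR 2.7.11b, FastQC, Picard, deepTools 3.5.6 and GRCh38. The annotation, the strand setting and the role of each tool are not given in the sources used here. The listed length equals the span of every gene, so intronic reads were counted. No column of the table was left unused. Counts summed to 39249066 and 45605027 (WT) and 33853507 and 33188536 (T4A).

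Gene names came from GENCODE by stable identifier (58742 of 60708 rows) and positions are those of the deposited table. GC content was read by identifier from a GRCh37 genome and is approximate for GRCh38 spans. Promoters and motifs came from RefSeq on GRCh38.p14.

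Counts were tested with edgeR 4.0.16 in R 4.3.3 (TMM, filterByExpr, quasi-likelihood test with trended dispersion, Benjamini-Hochberg adjustment over 23321 genes). TMM factors were 0.998, 0.967, 0.993 and 1.04. Standard errors were derived from the F statistic. Normalized CPM are counts scaled to the TMM-adjusted library size, and deviations use log2 CPM with a prior count of 2. The test was also run on simulated data for this comparison over 23321 genes. An adjusted p below 0.05 recovered 35.8%, 74.6% and 100% of genes changed 1.5-, 2- and 4-fold, with 4.11% false calls. Simulated counts varied by the trended dispersion alone, without the GC shift of T4A replicate 1. Only well-counted genes were changed, and the fold limit was not applied. These rates may therefore not hold for the real libraries.

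The labels do not say whether a shared replicate number marks a shared batch, so the libraries were treated as unpaired. Deviations of same-numbered libraries correlated at 0.00498 over genes, which does not decide whether a batch was shared. Alternatives were DESeq2 1.42.0, other scalings and filters, the replicate block, protein-coding genes alone, a length trend, and each library left out. The GC trend and the GC subsets were added after seeing the data.

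Members and lists were chosen with earlier results of these data known. Members named were those with an unadjusted p below 0.05, the 5 highest and 5 lowest log2 fold changes, the 5 highest and 5 lowest levels per kb of whole span, those without a test, those with a fixed role, and the 4 closest to a start on the other strand. MRPL18, MRPL36, MRPL47, MRPL52, MRPS11 and MRPS26 were named after their values were seen. The published study describes a different system and was used for style only.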

Additional observations from a re-analysis of the deposited data

How the results depend on the processing

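No member passed the threshold with both groups complete under DESeq2, library size without TMM, either filter, protein-coding genes alone, or removal of the length or GC trend. The replicate block gave 2, scaling to mitochondrially encoded genes gave 1, and leaving out single libraries gave 0 to 6. The count over all genes, 1, became 106 with DESeq2, 195 with scaling to mitochondrially encoded genes, 65 with no filter, 433 with the replicate block, 2 with the length trend removed and 327 with the GC trend removed, and 0 to 2431 with single libraries left out (2 without WT replicate 1, 0 without WT replicate 2, 224 without T4A replicate 1, 2431 without T4A replicate 2). The cause was not tested.

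The median log2 fold change of members less that of all tested genes, -0.09, ranged from -0.13 to -0.05 with single libraries left out. It was -0.17 with no filter, -0.047 when only protein-coding genes were tested and -0.047 relative to protein-coding genes, and -0.42 for members of 55% GC or more (10 genes). It was -0.09 with the replicate block.

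Of 494 alternative values of 38 single members, 454 kept direction and side of the threshold. The 9 stronger values were those of the 6 members above 60% GC. The other 31 had the opposite sign. With single libraries left out, values ran from -2.66 to 0.34 for MRPL41, -1.83 to 0.11 for MRPL23, -0.84 to 0.068 for MRPS26, -0.63 to 0.017 for MRPL34, -0.47 to 0.024 for MRPL36, -0.35 to 0.001 for MRPS12, -0.27 to 0.040 for MRPS36, -0.12 to 0.16 for MRPL17, -0.10 to 0.047 for MRPL33, -0.023 to 0.18 for MRPL44, -0.05 to 0.15 for MRPL47, -0.13 to 0.21 for MRPL58, -0.03 to 0.12 for MRPS11, -0.11 to 0.074 for MRPS18B, -0.12 to 0.11 for MRPS30 and -0.10 to 0.014 for MRPS35. Library size without TMM gave 0.022 for MRPL33, 0.027 for MRPS18B, 0.039 for MRPS30 and 0.000 for MRPS35. Protein-coding genes only gave 0.005 for MRPL33, 0.009 for MRPS18B and 0.018 for MRPS30. MRPL17 was at -0.004 both without a filter and when scaled to mitochondrially encoded genes, and at -0.012 with the GC trend removed. With 2 libraries a group, a 1.5-fold change was recovered in 35.8% of the genes changed in the test on simulated data for this comparison, so members that missed the threshold are not shown to be unchanged.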

Other observations

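The table also lists 79 pseudogenes of the members, of which 50 were at 0 in all 4 libraries. The rest summed to 697 and 737 counts in the WT libraries and to 798 and 745 in the T4A libraries, beside 115401 and 139614 counts (WT) and 97922 and 97113 counts (T4A) of the members themselves.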
